A study of Mus musculus with 16 samples.

Results

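The transcripts described here are the curated noncoding RNAs that were well expressed in mouse adipose tissue. They are the entries of the deposited expression table whose RefSeq identifier starts with NR_ and whose CPM, the count scaled to a library's total, averaged at least 5 over the 16 libraries, without H19, Meg3 and any entry whose symbol RefSeq lists as protein-coding. Of 130343 entries, 7905 carry an NR_ identifier and 305 of these reached the limit. Removing 29 entries with a protein-coding symbol and 2 Meg3 entries left 274 transcripts, all of which also passed the filter for testing. GENCODE lists 13 of the 274 as protein-coding, and these were kept. RefSeq lists 223 of them as long noncoding RNAs (lncRNAs), 47 as transcribed pseudogenes, 2 as microRNA precursors and 1 as a small nucleolar RNA (snoRNA), and 1 entry, NR_169793 on chromosome 11, had no symbol. The transcripts were chosen by their mean level over all libraries, so that level is a description and not a result. The 3 nearest above the limit were Jpx (mean 5.09 CPM), Gm16861 (5.04 CPM) and Gm20605 (5.02 CPM), and the 3 nearest below were C530005A16Rik (4.97 CPM), Particl (4.97 CPM) and Gm35486 (4.94 CPM). Without the libraries of 1 of the 4 groups, 23 of the 274 would have fallen under 5 CPM, so that the rule favoured a difference for those high in 1 group. Among the 23 are 9030619P08Rik, Bc1, Gm43305, G530011O06Rik, 4930578M01Rik, C920009B18Rik, Lncppara and Trp53cor1.

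RNA was measured in wild-type male C57BL/6J mice. From 10 weeks of age 4 mice received a high-fat diet (42% of the energy from fat, 0.2% cholesterol) for 12 to 14 months and are called obese, while 4 lean mice stayed on normal laboratory diet. Each mouse gave 1 library from the inguinal pads of both sides, combined as subcutaneous adipose tissue (SAT), and 1 library from mesenteric fat as visceral adipose tissue (VAT), so the 16 libraries form 4 groups of 4. RNA was poly-A selected with a directional kit, and reads were counted per RefSeq transcript. The comparisons asked which noncoding transcripts differed between obese and lean mice in each depot, which differed between VAT and SAT, and whether the response to diet was the same in both depots.

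Noncoding RNA genes work in several ways. Small nucleolar RNA host genes are spliced transcripts whose introns release snoRNAs, which guide the chemical modification of ribosomal RNA, while the remaining spliced RNA is often degraded during translation. MicroRNA host genes carry the hairpins from which microRNAs are cut, and a microRNA recognises its target messages mainly through its seed. Other long noncoding RNAs stay in the nucleus, as Malat1 does in nuclear speckles and Neat1 in paraspeckles, or are expressed from the chromosome of 1 parent only, as Rian and Kcnq1ot1 are.

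Among the 274 transcripts, 17 span snoRNA genes by position, with strand not considered, and 12 span microRNA genes on their own strand, and Rian does both. The mature microRNAs themselves were not measured in these poly-A selected libraries. The sequences below are encoded inside 8 of the host transcripts described further on, chosen because they share a seed or because their host is set out by depot or diet there. They are given as RefSeq has them on build GRCm38.p6, with the seed (bases 2 to 8) in capitals. The let-7 pair from Lncppara shares a seed, as does the miR-29 pair from A330023F24Rik.
mmu-let-7c-5p (chr15:85706616-85706637, + strand, from Lncppara): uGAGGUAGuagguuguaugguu
mmu-let-7b-5p (chr15:85707325-85707346, + strand, from Lncppara): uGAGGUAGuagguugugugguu
mmu-miR-29b-3p (chr1:195037091-195037113, + strand, from A330023F24Rik): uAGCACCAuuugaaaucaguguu
mmu-miR-29c-3p (chr1:195037600-195037621, + strand, from A330023F24Rik): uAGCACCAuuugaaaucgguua
mmu-miR-22-3p (chr11:75463772-75463793, + strand, from Mir22hg): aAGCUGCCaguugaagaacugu
mmu-miR-16-5p (chr14:61631936-61631957, - strand, from Dleu2): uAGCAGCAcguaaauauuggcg
mmu-miR-92a-3p (chr14:115044476-115044496, + strand, from Mir17hg): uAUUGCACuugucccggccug
mmu-miR-223-3p (chrX:96242884-96242905, + strand, from F630028O10Rik): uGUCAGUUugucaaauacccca
mmu-miR-101a-3p (chr4:101346957-101346977, - strand, from E130102H24Rik): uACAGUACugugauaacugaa
mmu-miR-370-3p (chr12:109618305-109618326, + strand, from Rian): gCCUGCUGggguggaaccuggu

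Host genes of snoRNAs often start with a C followed by a run of pyrimidines, the start that marks transcripts of the translation machinery. A start of C with at least 4 further C or T bases was found, on the transcribed strand, in 4 of the 15 snoRNA hosts with a RefSeq start sequence (26.7%), in 11 of 188 listed transcripts (5.85%), in 0 of 12 microRNA hosts and in 813 of 27025 genes in all (3.01%). The transcripts with such a start are set against other snoRNA hosts below, by the first 30 bases from the annotated start, with the pyrimidine run in capitals. Each window holds 250 bases before and 50 after the start on GRCm38.p6.
Snhg7 (window chr2:26640195-26640494, - strand): CTCTCggcagccatggcggctctatgtttg
Snhg8 (window chr3:123508287-123508586, - strand): CTCTTTggctgcgatccgcctacgagtatg
Gas5 (window chr1:161034916-161035215, + strand): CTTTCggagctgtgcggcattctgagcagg
1110038B12Rik (window chr17:34952419-34952718, - strand): CTCTTTgtgcacccgcccacacggtttgcc
Snhg11 (window chr2:158375463-158375762, + strand): actcacgcactcagcctgctaggcaagtca
Snhg5 (window chr9:88522848-88523147, - strand): gggctcgttcttttacgacggagcctaaga
Snhg3 (window chr4:132353637-132353936, - strand): gacttccgggcgttacttaaggtataaata
Gas5 and 1110038B12Rik each have another annotated start without the run. A start without it says only that these letters were not at the annotated position.

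Total counts ranged from 1256082 (lean VAT, replicate 1) to 16614407 (SAT, obese replicate 3), so that 1 count stood for 0.796 to 0.0602 CPM, and the obese VAT replicate 1 had 2247737 counts. Levels below are CPM scaled with TMM factors. The stearoyl-CoA desaturase gene Scd1 alone took 12.5% to 25.7% of the counts in the obese libraries. The 8 adipocyte markers, such as the hormone gene Adipoq, summed to between 37540 and 58210 TMM-scaled CPM in SAT and between 15520 and 34740 in VAT, without overlap. Of their 16 tested entries 4 were lower in VAT of lean and 12 in VAT of obese mice, and 7 fell with the diet in VAT, with a median log2 fold change of -0.66 there and -0.15 in SAT. Markers of the mesothelium, the layer that covers visceral fat, summed to at most 1.41 in SAT and to between 256 and 623 in VAT. The 8 macrophage markers summed to between 1406 and 2018 in lean SAT, 2270 and 3214 in obese SAT, 2467 and 3225 in lean VAT, and 5505 and 7838 in obese VAT. Of the 7 tested macrophage marker entries 5 rose with the diet in SAT and 7 in VAT, while Adgre1 was at 0 in 9 libraries. In bulk tissue fewer cells of a type and less RNA per cell cannot be told apart.

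Mean levels over all libraries, in the CPM without TMM factors that the limit used, reached from 5 to 2475 CPM for Malat1. On that scale the median of the 274 was 11.4 CPM, with 122 transcripts under 10 CPM, 139 between 10 and 100 CPM and 13 over 100 CPM. Malat1, which is held in nuclear speckles, and Norad, a cytoplasmic RNA that binds Pumilio proteins, differed little between the groups. Malat1 averaged 2477 ± 473 TMM-scaled CPM in lean SAT and 2427 ± 219.5 in obese SAT (SD, n = 4), and 2493 ± 229 and 2464 ± 248 in lean and obese VAT. Its log2 fold changes lay between -0.03 and 0.02 in the diet and depot comparisons. Norad averaged 578 ± 29.6, 551 ± 41.6, 533 ± 61.2 and 525 ± 11.4 in the same order, with no comparison past the threshold (adjusted p of 0.492 or more). Pisd-ps3, a pseudogene of phosphatidylserine decarboxylase, lay between 442 and 836 in every library, and Brip1os, which overlaps Brip1 on the other strand, between 109.5 and 174.

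Together the 274 transcripts took 0.705% to 1.08% of a library's counts. In SAT the share was 1.02% ± 0.0564 (SD, n = 4) in lean mice and 0.805% ± 0.0706 in obese mice, a log2 difference of -0.34 for which the exact two-sided permutation test over mice gave p = 0.0286, the smallest that 70 arrangements allow (0.114 after adjustment over 4 comparisons). In VAT it was 0.975% ± 0.0574 and 0.948% ± 0.0637 (log2 difference -0.04, exact permutation p = 0.514). The SAT value depended on the scaling. Against TMM effective library sizes, which weigh the highest genes less, it was -0.12 (exact permutation p = 0.0857), and without Malat1 it was -0.16 on that scale (exact permutation p = 0.0286). Between depots the share of obese mice was higher in VAT by raw counts (log2 difference 0.24) and lower by TMM effective sizes (-0.10), with p = 0.12 in the exact paired test, the smallest that 4 mice allow.

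In SAT, obesity went with lower levels of many noncoding transcripts. Of the 274, 60 fell and 7 rose in obese against lean mice (edgeR, adjusted p below 0.05), or 24.5%, against 11.0% of all 13288 tested entries (4.85% fell and 6.20% rose). Among the 5541 tested entries that also had a mean of at least 5 CPM, 16.9% were called, 6.75% lower and 10.2% higher. The median log2 fold change of the 274 was -0.22 and that of all entries 0.01, and 191 of the 274 were negative. Of the lncRNAs 52 fell and 5 rose, of the pseudogenes 7 fell and 2 rose. A further limit, a log2 fold change beyond 1.5, was passed by 6 of the 274, against 2.75% of all tested entries and 1.59% of those with a mean of at least 5 CPM. Of the transcripts that stay at 5 CPM or more without any 1 group, 56 fell and 6 rose (24.7%), and past 1.5 lay 4 that fell and 1 that rose. The number that fell dropped to 34 when lean replicate 2 was left out, to 36 for obese replicate 2, and to 39 for lean replicate 3 or obese replicate 3.

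**Figure D1:**
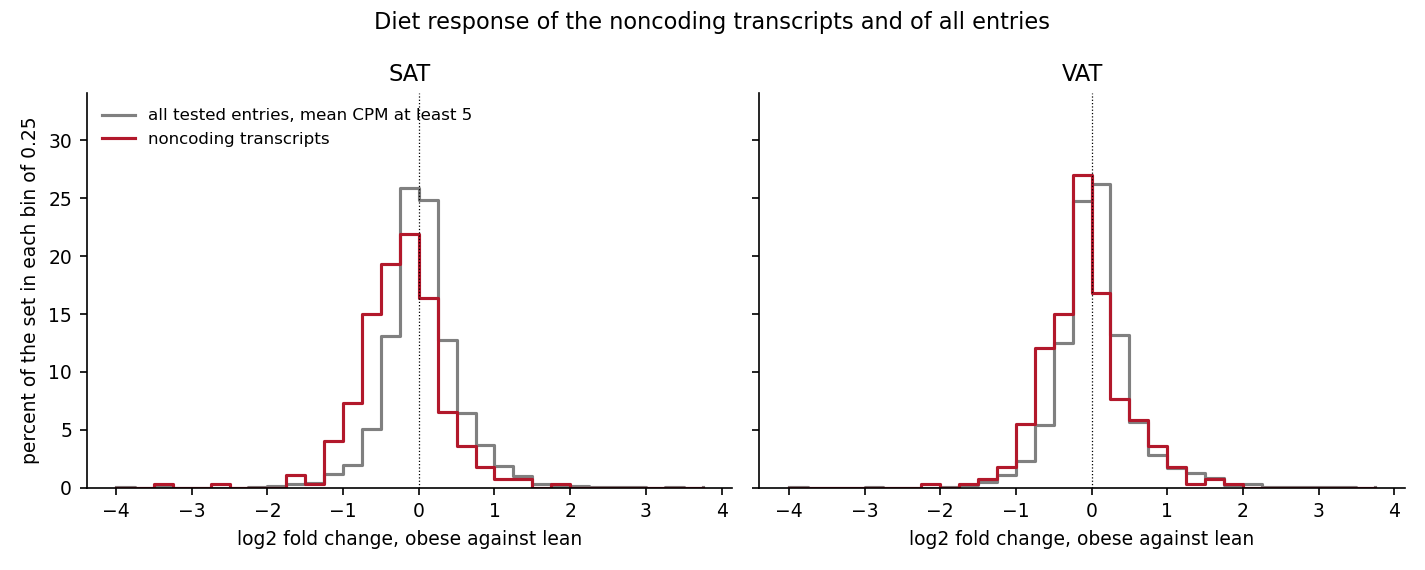
Distribution of the log2 fold change of obese against lean mice in SAT (left) and VAT (right). The x axis is the log2 fold change in bins of 0.25 and the y axis the percent of each set in a bin, for the 274 noncoding transcripts (red) and all 5541 tested entries with a mean of at least 5 CPM (grey), with values beyond 4 in the end bins. The red line lies to the left of the grey one in SAT, with medians of -0.22 and 0.02, and closer to it in VAT, with medians of -0.08 and 0.02.

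9030619P08Rik, listed in RefSeq as a transcribed pseudogene (chr15:75299450-75303735, GRCm39, minus strand), was among those that fell in SAT. It reached the limit of 5 CPM only through lean SAT, with a mean of 1.99 CPM over the other groups, so the rule had selected it for a high lean SAT level. The lean SAT libraries held 46.7, 24.8, 45.6 and 21.3 TMM-scaled CPM and the obese ones 2.23, 4.13, 3.38 and 4.63, which do not overlap (log2 fold change -3.28 ± 0.30 (SE), adjusted p = 2.53e-07). It was low in VAT, at 1.28, 1.61, 2.90 and 3.31 in lean and 0, 0.825, 0.479 and 0.514 in obese mice, and fell there as well (-2.09 ± 0.46, adjusted p = 0.00416), a call lost under limma voom. Each lean mouse had more of it in SAT than in VAT (log2 difference -3.69 ± 0.27, adjusted p = 8.09e-10).

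Other transcripts that fell in SAT also fell in VAT. Gm41999 held 15.6, 23.1, 23.7 and 16.6 in lean SAT and 5.08, 6.36, 5.87 and 8.41 in obese SAT (log2 fold change -1.62 ± 0.26 (SE), adjusted p = 0.000238), and fell in VAT as well (-1.69 ± 0.27, adjusted p = 0.000211). Gm19522 (chr16:42704725-42732452) went from 14.4, 26, 17.4 and 15.5 to 7.54, 4.87, 7.38 and 5.25 in SAT (-1.54 ± 0.21, adjusted p = 4.8e-05) and fell in VAT (-1.37 ± 0.21, adjusted p = 0.000154). For neither did the lean and obese libraries of a depot overlap. Gbp11, of the guanylate-binding protein family and protein-coding in GENCODE, fell in SAT from 6.28, 26, 18 and 14.7 to 4.92, 4.87, 4.62 and 5.25 (-1.71 ± 0.39, adjusted p = 0.00629), with every obese library below every lean one.

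Further transcripts fell in SAT by around 1 on the log2 scale. Gm20257, listed as a transcribed pseudogene, held 55, 68, 54.4 and 43.2 in lean and 23.3, 20.9, 23.2 and 25.8 in obese SAT, without overlap (log2 fold change -1.25 ± 0.16 (SE), adjusted p = 3.07e-05), and it fell in VAT too (-0.56 ± 0.17, adjusted p = 0.0331), a call lost without lean replicate 2 or any 1 obese mouse. 2900052L18Rik held 30, 45.7, 44.3 and 33.4 in lean and 16.5, 21.7, 19.2 and 11.7 in obese SAT (-1.15 ± 0.20, adjusted p = 0.000443), and 4831440E17Rik held 23.5, 38, 21.2 and 20.2 and 12.3, 10.3, 12 and 12 (-1.14 ± 0.19, adjusted p = 0.000475). Both fell in VAT as well (-0.89 ± 0.21, adjusted p = 0.00644 and -0.81 ± 0.20, adjusted p = 0.00984), and the VAT call for 4831440E17Rik was lost without obese replicate 4. Gm16016, a transcribed pseudogene, fell in SAT (-1.39 ± 0.26, adjusted p = 0.000908), where lean replicate 3 was lower than the other lean libraries, with values of 13.8, 13.9, 7.53 and 14.2. BC051226 fell in SAT from a mean of 7.17 ± 1.90 to 3.13 ± 0.599 (-1.20 ± 0.29, adjusted p = 0.00995). Hmga2-ps1, a pseudogene of the chromatin protein gene Hmga2, averaged 57.7 ± 8.84 in lean and 37.1 ± 7.53 in obese SAT (-0.64 ± 0.18, adjusted p = 0.0205, lost without lean replicate 3, obese replicate 2 or the mice of the shallowest VAT library of each diet), and 14.9 ± 1.82 and 14.8 ± 4.15 in VAT.

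Of the 7 that rose in SAT, Gm9696 (chr3:59859730-59881015), a transcribed pseudogene, rose most. It held 29.1, 12.9, 26.8 and 41.7 TMM-scaled CPM in lean and 122, 93.8, 66.2 and 115 in obese SAT, without overlap (log2 fold change 1.86 ± 0.41 (SE), adjusted p = 0.00442). In VAT it held 5.76, 4.55, 5.47 and 19.3 and 31.4, 17.1, 7.09 and 7.88, which overlap (0.66 ± 0.46, adjusted p = 0.423). Gm5424, a pseudogene of argininosuccinate synthase, averaged 23.1 ± 13.3 in lean and 54.5 ± 15.6 in obese SAT (1.25 ± 0.30, adjusted p = 0.00796). Such a pseudogene shares sequence with its parent gene, and reads that fit both may have been counted for either. Bc1, a small RNA best known from neurons, went from 2.73, 2.96, 1.52 and 9.36 to 4.23, 16.2, 10.8 and 10.6, and its lean and obese libraries overlap (1.47 ± 0.46, adjusted p = 0.0424). It reached the limit through obese SAT (mean without that group 4.31 CPM), and its call was kept in 10 of 18 alternatives, being lost under DESeq2, without lean replicate 1, 2 or 3 or obese replicate 2, 3 or 4, and without the mice of the shallowest VAT library of each diet.

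The lncRNAs Gm6277, Gm40617 and Gm16907 also rose in SAT. Gm6277 held 7.60, 9.57, 7.15 and 6.81 in lean and 18.3, 19.3, 14.4 and 13.7 in obese SAT (log2 fold change 1.07 ± 0.19 (SE), adjusted p = 0.000605). Gm40617 held 16.6, 13.9, 14.1 and 12.3 and 24.2, 28.1, 24.6 and 23.7 (0.81 ± 0.20, adjusted p = 0.01), and was lower in VAT than in SAT of lean (-0.80 ± 0.20, adjusted p = 0.00872) and obese mice (-1.67 ± 0.19, adjusted p = 8.07e-07). Gm16907 averaged 4.62 ± 0.968 in lean and 7.71 ± 0.488 in obese SAT (0.72 ± 0.20, adjusted p = 0.0226), a call lost with no filter, with the replicate block, and without lean replicate 3 or 4 or obese replicate 2 or 3.

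In VAT, 31 of the 274 fell and 18 rose in obese mice, or 17.9%, against 10.9% of all tested entries (4.09% fell and 6.82% rose) and 17.6% of entries with a mean of at least 5 CPM (6.95% fell and 10.6% rose). The share called was therefore close to that of entries at like levels. The median log2 fold change was -0.08, against 0.02 for all entries. Of the lncRNAs 29 fell and 12 rose, and of the pseudogenes 2 fell and 6 rose. Leaving out lean replicate 2 gave 20 that fell, leaving out lean replicate 3 gave 17, and leaving out obese replicate 4 gave 14. Past a log2 fold change of 1.5 lay 5 of the 274, against 3.17% of all tested entries and 2.31% of those with a mean of at least 5 CPM. Of the transcripts that stay at 5 CPM or more without any 1 group, 29 fell and 16 rose (17.9%), and 1 of each lay past 1.5. Of the 67 transcripts called in SAT, 21 (31.3%) were also called in VAT, which is 42.9% of the 49 called there, and all 21 had the same direction, 20 lower and 1 higher. Over all entries 518 were called in both depots (35.3% and 35.7%). The libraries of both depots come from the same mice.

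The transcript that rose in both depots was Gm52877. It held 28.1, 39.8, 26.5 and 33.6 in lean SAT and 56.2, 48.7, 70.2 and 54.6 in obese SAT, and 39.1, 31.1, 31.2 and 28.9 in lean VAT and 88.2, 78.8, 62.8 and 83.5 in obese VAT. No obese library lay within the range of the lean ones of its depot (log2 fold change 0.85 ± 0.15 (SE), adjusted p = 0.00079 in SAT, and 1.29 ± 0.16, adjusted p = 1e-05 in VAT).

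Some transcripts of immune loci, grouped here after their values were seen and without a test of the group, changed in VAT. The major histocompatibility transcripts H2-K2 (0.86 ± 0.23, adjusted p = 0.0175), H2-T10 (0.85 ± 0.20, adjusted p = 0.00594) and H2-Q5 (0.79 ± 0.25, adjusted p = 0.0452) rose on the log2 scale, as did the interferon-induced gene Mx1 (0.84 ± 0.27, adjusted p = 0.0449). H2-K2 held 23.1, 9.27, 9.44 and 10.1 in lean VAT and 21.1, 18.7, 21 and 23.3 in obese VAT, and lean replicate 1, the shallowest library, reached the obese range. These class I genes are near copies of each other, so the gene a read came from is uncertain. F630028O10Rik, the host of miR-223, a microRNA of myeloid cells, held 10.2, 10.5, 8.69 and 8.84 in lean and 18.4, 15.3, 11.8 and 18.8 in obese VAT without overlap (0.74 ± 0.23, adjusted p = 0.0385). Among these calls, that for H2-T10 was kept in all 18 alternatives, while those for H2-K2, H2-Q5, Mx1 and F630028O10Rik were kept in 13, 8, 7 and 9. They were lost when single mice were left out, for H2-K2 lean replicate 2, 3 or 4 or obese replicate 4, for H2-Q5 also obese replicate 1 or 2, for Mx1 lean replicate 1, 3 or 4 or obese replicate 1, 2 or 4, and for F630028O10Rik any lean mouse or obese replicate 1, 2 or 4. Gbp11, of the interferon-induced guanylate-binding family, did not pass the test and held 3.20, 26.1, 28 and 10.9 in lean and 8.05, 11.4, 7.38 and 6.77 in obese VAT (-1.14 ± 0.39, adjusted p = 0.0624). The summed macrophage, B cell and T cell markers were higher in the obese VAT libraries, B cell markers from a sum between 38.5 and 276 to one between 244 and 454 and T cell markers from a sum between 10.8 and 16.1 to one between 25.7 and 54.4, and their part in these changes was not tested.

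Gm43305 and G530011O06Rik, both low in lean VAT, were higher in obese VAT, the group through which both had reached the limit (means without it 2.82 and 4.04 CPM). Gm43305 held 0, 4.43, 3.54 and 2.21 in lean VAT and 13.8, 11.3, 11 and 9.34 in obese VAT (log2 fold change 1.83 ± 0.50 (SE), adjusted p = 0.019), and G530011O06Rik, on the X chromosome, held 1.28, 1.61, 4.61 and 4.42 and 4.60, 7.76, 11.5 and 13 (1.58 ± 0.39, adjusted p = 0.00948). The call for Gm43305 was lost under DESeq2 and without lean replicate 4, and that for G530011O06Rik without lean replicate 2 or obese replicate 4. A530040E14Rik rose from a mean of 7.07 ± 2.55 to 14.9 ± 3.93 (1.18 ± 0.25, adjusted p = 0.00333), and Gm36161 from 20.2 ± 2.07 to 37.7 ± 4.01 (0.90 ± 0.19, adjusted p = 0.003). Among those that fell in VAT, Gm6936 held 26.3, 20.7, 35.5 and 25.4 in lean and 13, 13.5, 10.3 and 7.79 in obese mice (-1.29 ± 0.24, adjusted p = 0.00103), and A530053G22Rik fell from a mean of 15.6 ± 2.21 to 7.63 ± 1.45 (-0.98 ± 0.20, adjusted p = 0.00226). Gm6936 was also higher in VAT than in SAT of lean mice (1.33 ± 0.18, adjusted p = 8.13e-06), and A530053G22Rik lower in VAT than in SAT of obese mice (-1.01 ± 0.19, adjusted p = 0.000231). 4930578M01Rik and 9630013D21Rik fell in VAT (-1.23 ± 0.26, adjusted p = 0.00277 and -1.17 ± 0.28, adjusted p = 0.00658) and in SAT (-1.07 ± 0.23, adjusted p = 0.00332 and -1.0 ± 0.25, adjusted p = 0.00995), and the VAT call for 9630013D21Rik was lost without lean replicate 3. The rule favoured a difference for 4930578M01Rik, which would have fallen under 5 CPM without 1 of the 4 groups.

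Host genes of snoRNAs were among the transcripts that fell in SAT. Of the 14 listed by name, 5 fell and 0 rose in SAT, or 35.7% lower, against 4.85% of all tested entries and 6.75% of those with a mean of at least 5 CPM (median log2 fold change -0.39, against 0.01 for all entries). Among all 274 transcripts the share called in SAT was 24.5%, 60 lower and 7 higher, with a median of -0.22. In VAT 1 of the 14 fell and 0 rose, or 7.1% lower, against 4.09% of all tested entries and 6.95% of those at 5 CPM or more (median 0.06, against 0.02), and limma voom called 2 there. The test of whether the diet response differed between VAT and SAT passed for 0 of the 14 by edgeR, with 4 at an unadjusted p under 0.05, for 0 by DESeq2 and for 1 by limma voom. Snhg11 (chr2:158217558-158228071, GRCm39, plus strand), the host with the most counts, held 399, 505, 395 and 239.7 TMM-scaled CPM in lean SAT and 226, 208, 204 and 155 in obese SAT, with no overlap (log2 fold change -0.96 ± 0.21 (SE), adjusted p = 0.00441). In VAT it held 252, 295, 281 and 174 and 110.4, 129, 139 and 69.8, again without overlap (-1.16 ± 0.21, adjusted p = 0.000819). It was thus lower in obese mice in both depots and lower in VAT than in SAT of both diets (-0.60 ± 0.11, adjusted p = 0.000572 in lean and -0.86 ± 0.11, adjusted p = 5.25e-06 in obese mice), the lean call being lost without the mouse block.

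The other 4 that fell in SAT were Snhg20, Snhg7, Gas5 and Snhg4. Snhg20 is on the list by name, but spans no snoRNA gene by position and is also counted among the microRNA hosts. Snhg20 held 8.51, 8.87, 8.29 and 9.36 in lean and 4.85, 5.62, 3.93 and 4.32 in obese SAT (-0.90 ± 0.20, adjusted p = 0.00417), and its groups do not overlap. Snhg7, which has the pyrimidine start, held 17.9, 14.5, 23.3 and 13.6 and 10.8, 9.85, 11.5 and 9.18 (-0.76 ± 0.19, adjusted p = 0.0126). Gas5, a host named for its rise in growth-arrested cells, held 40.3, 42.4, 39.2 and 53.2 and 30.8, 27.2, 30.5 and 36.7 (-0.48 ± 0.14, adjusted p = 0.0273), also without overlap, and in VAT it held 36.5, 38.8, 35 and 30.3 and 35.6, 44.2, 38.2 and 39.1 (0.17 ± 0.14, adjusted p = 0.515). Snhg4 fell in SAT (-0.71 ± 0.20, adjusted p = 0.0243), a call that was lost with no filter and without lean replicate 2 or 3 or obese replicate 1, 3 or 4, and that for Snhg7 was lost without lean replicate 3. The call for Gas5 was lost with no filter, without the mice of the shallowest VAT library of each diet, and when lean replicate 2 or 4 or obese replicate 1, 2 or 3 was left out, with log2 fold changes between -0.56 and -0.38 over all alternatives. Snhg8 and 1110038B12Rik, the other hosts with a pyrimidine start, changed by -0.11 and 0.08 in SAT (adjusted p = 0.855 and 0.873), so the start was found in hosts that fell and in hosts that did not pass the test. By position over snoRNA genes, 5 of 17 hosts fell in SAT (29.4%, against 4.85% of all tested entries and 6.75% of those with a mean of at least 5 CPM). Of these, Snhg11, Snhg7, Gas5 and Snhg4 are also on the list by name. The other was 9430037G07Rik (-0.74 ± 0.24, adjusted p = 0.048, kept in 8 of 18 alternatives and lost without lean replicate 2 or 3 or any 1 obese mouse). In VAT 11.8% of the 17 were called, against 10.9% and 17.6%, and 2410006H16Rik was the host that rose there (0.92 ± 0.22, adjusted p = 0.00669).

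The genes for proteins that work with these RNAs were described by 5 lists, beside 11.0% of all tested entries called in SAT and 10.9% in VAT. Of 5 tested entries of snoRNP proteins, which bind snoRNAs, 0 were called in either diet comparison by edgeR, DESeq2 or limma voom, with 1 at an unadjusted p under 0.05 in each depot by each tool, and Snu13 and Rrp9 were higher in VAT than in SAT of obese mice. Of 10 tested entries of factors of nonsense-mediated decay, which degrades many snoRNA host transcripts, 0 were called in any of the 5 comparisons by edgeR (at most 1 at an unadjusted p under 0.05) or by DESeq2, and limma voom called 1, as lower in VAT of obese mice. Of 7 tested entries of nuclear speckle proteins, 1 each of Srsf1 and Srsf2 fell in SAT. In VAT 0 were called by edgeR, with 2 at an unadjusted p under 0.05, and 1 each by DESeq2 and limma voom. Of 2 tested entries of microRNA processing proteins, Ago2, which holds the mature microRNA, rose in SAT (log2 fold change 0.59, adjusted p = 0.0086) from a mean of 141 ± 15.6 to 212 ± 10.3 TMM-scaled CPM. Of 4 tested entries of paraspeckle proteins, 1 transcript of Hnrnpk, which has 17 entries, rose in SAT (1.67, adjusted p = 0.0447). It rests on few reads, at 0 to 5 counts in the lean and 12 to 15 in the obese SAT libraries (0.322 ± 0.252 and 1.14 ± 0.304 TMM-scaled CPM). In VAT edgeR, DESeq2 and limma voom called 0 of either list, with 0 at an unadjusted p under 0.05. Several genes of these lists could not be tested, since genes with several RefSeq transcripts were often at or near 0 in this table.

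**Figure D2:**
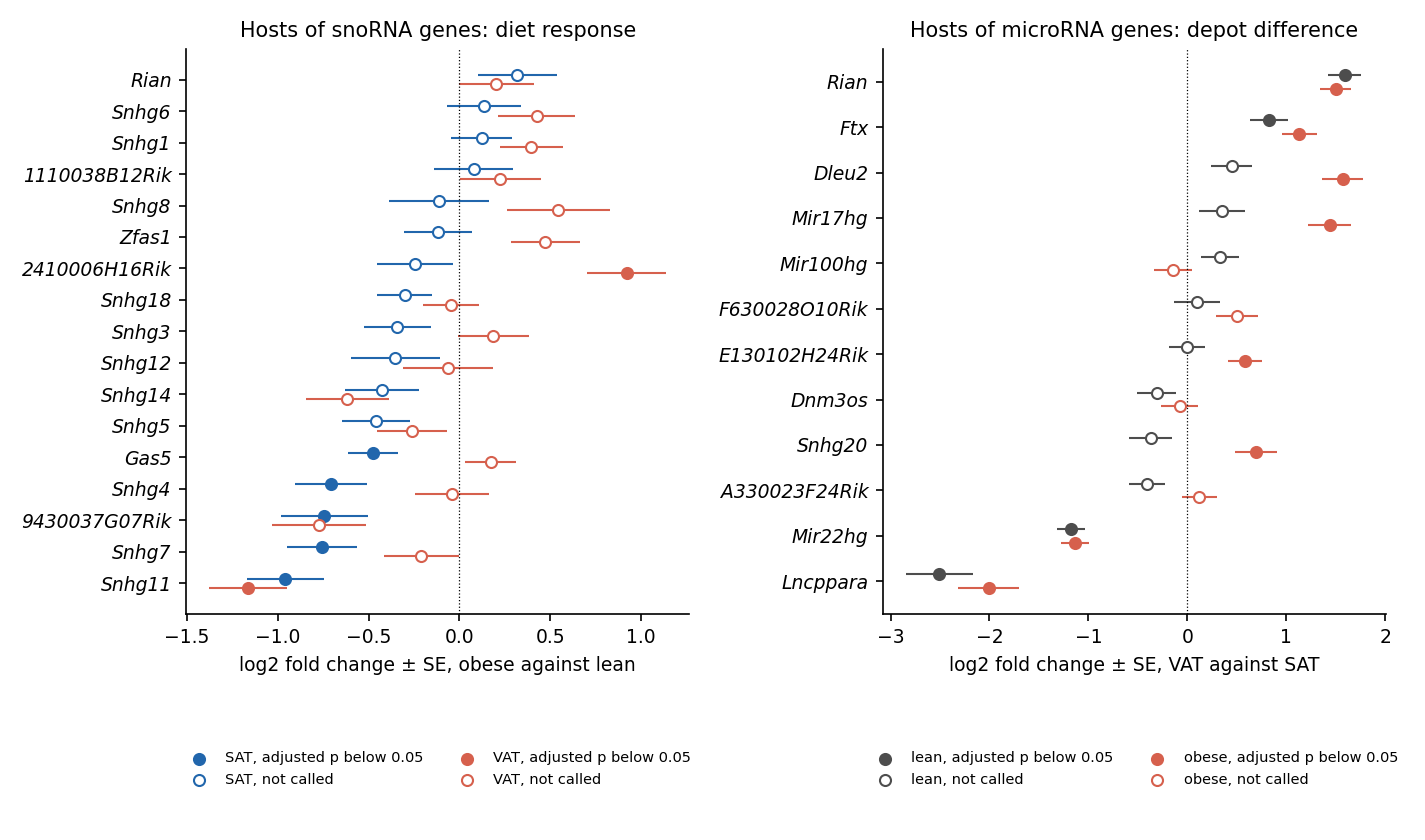
Log2 fold change with its standard error (x axis) of host transcripts (y axis). Left, 17 hosts of snoRNA genes, obese against lean, in SAT (blue) and VAT (red). Right, 12 hosts of microRNA genes, VAT against SAT, in lean (grey) and obese (red) mice. Filled points have an adjusted p below 0.05. In SAT 5 snoRNA hosts fell, down to -0.96 for Snhg11, and Rian and Lncppara mark the ends of the depot differences at 1.59 and -2.51. Lncppara would have fallen under 5 CPM without 1 of the 4 groups.

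In lean mice, 23 of the 274 were higher and 45 lower in VAT than in SAT, or 24.8%, against 14.8% of all tested entries (8.0% higher and 6.84% lower) and 22.9% of entries with a mean of at least 5 CPM (11.0% higher and 11.9% lower). In obese mice 53 were higher and 50 lower, or 37.6%, against 29.4% of all tested entries (15.9% higher and 13.5% lower) and 41.9% of entries with a mean of at least 5 CPM (19.9% higher and 21.9% lower). Differences beyond 1.5 on the log2 scale were found for 15 of the 274 in lean mice (5.44% of all entries and 3.72% of those with a mean of at least 5 CPM) and for 20 in obese mice (9.59% and 5.14%). Of the transcripts that stay at 5 CPM or more without any 1 group, 3 were higher and 9 lower beyond 1.5 in lean mice, and 9 higher and 7 lower in obese mice. The median log2 difference of the 274 was -0.10 in lean and 0.02 in obese mice, against 0.01 and 0.04 over all entries. Between lean and obese mice, which share no animal, 51 calls were common (75% of 68 and 49.5% of 103), all in the same direction, 17 higher and 34 lower. Over all entries 1433 were common, 72.7% of the calls in lean and 36.7% of those in obese mice. The number higher in VAT of lean mice was 13 without replicate 1, 13 without replicate 2 and 11 without replicate 3, and that of obese mice was 31 without replicate 4.

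1700047G03Rik (chr15:11964362-11970172, GRCm39, plus strand), a lncRNA, was higher in SAT in both diets. SAT libraries held 459, 281, 258 and 366 TMM-scaled CPM in lean and 572, 430.3, 298 and 385 in obese mice, and VAT libraries 38.4, 56.5, 52 and 96.3 and 134, 132, 86.2 and 66.8. All 8 SAT libraries lay above all 8 VAT libraries (log2 difference -2.45 ± 0.18 (SE), adjusted p = 9.71e-10 in lean and -2.02 ± 0.17, adjusted p = 8.69e-09 in obese mice). Ctcflos, antisense to Ctcfl, was lower in VAT of lean (-0.96 ± 0.14, adjusted p = 1.78e-05) and obese mice (-0.96 ± 0.14, adjusted p = 1.01e-05). The most abundant tested transcript of Ctcfl was lower in VAT as well (-1.23, adjusted p = 0.00475 in lean and -0.97, adjusted p = 0.0167 in obese mice). C920009B18Rik held 0.661, 1.13, 1.52 and 2.13 in lean SAT and 11.5, 6.28, 1.93 and 5.30 in lean VAT, and was higher in VAT of lean (1.98 ± 0.45, adjusted p = 0.00328) and obese mice (1.93 ± 0.36, adjusted p = 0.000274). It would have fallen under 5 CPM without 1 of the 4 groups, so the rule favoured a difference for it. AI504432 was also higher in VAT of lean (1.63 ± 0.24, adjusted p = 3.35e-05) and obese mice (2.17 ± 0.21, adjusted p = 6.4e-08). The B cell markers summed to at most 13.2 in SAT and to at least 38.5 in VAT, so that their sum separates the depots as the sums of mesothelial and adipocyte markers do, the adipocyte sum in the other direction. Their part in the depot differences was not tested.

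Several further lncRNAs separated the depots in both diets. Gm36691 held 23.7, 13.9, 20 and 19.1 in lean SAT and 0, 3.65, 5.15 and 5.30 in lean VAT (log2 difference -2.16 ± 0.28 (SE), adjusted p = 5.44e-06), and in obese mice 39.3, 31.1, 26 and 16.1 in SAT and 9.20, 6.11, 4.41 and 1.63 in VAT (-2.55 ± 0.26, adjusted p = 1.54e-07). The value of 0 belongs to the shallowest library. 5930403L14Rik was lower in VAT of lean (-2.15 ± 0.18, adjusted p = 1.12e-08) and obese mice (-1.35 ± 0.17, adjusted p = 2.08e-06), as were B930092H01Rik (-2.03 ± 0.21, adjusted p = 2.14e-07 and -1.83 ± 0.19, adjusted p = 1.93e-07) and AI606473 (-2.06 ± 0.25, adjusted p = 2.39e-06 and -1.30 ± 0.22, adjusted p = 0.000111). AI606473 also rose with the diet in VAT, from a mean of 3.57 ± 1.16 to 7.82 ± 1.34 (1.02 ± 0.29, adjusted p = 0.0258), a call lost under limma voom and without lean replicate 3 or 4 or obese replicate 3. In the other direction, C330020E22Rik held 18.9, 16.9, 17.2 and 15.5 in lean SAT and 50.6, 61.9, 45 and 44.7 in lean VAT (1.55 ± 0.15, adjusted p = 7.38e-08), with no overlap, and was also higher in VAT of obese mice (1.43 ± 0.14, adjusted p = 9.69e-08). Prr33, which is protein-coding in GENCODE and overlaps Tnnt3 on the other strand, was higher in VAT of lean (1.07 ± 0.21, adjusted p = 0.000704) and obese mice (1.44 ± 0.20, adjusted p = 7.09e-06), as was the pseudogene Slc2a4rg-ps (0.79 ± 0.24, adjusted p = 0.0274 and 1.71 ± 0.23, adjusted p = 7.83e-06), whose call in lean mice was lost without lean replicate 2, 3 or 4.

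**Figure D3:**
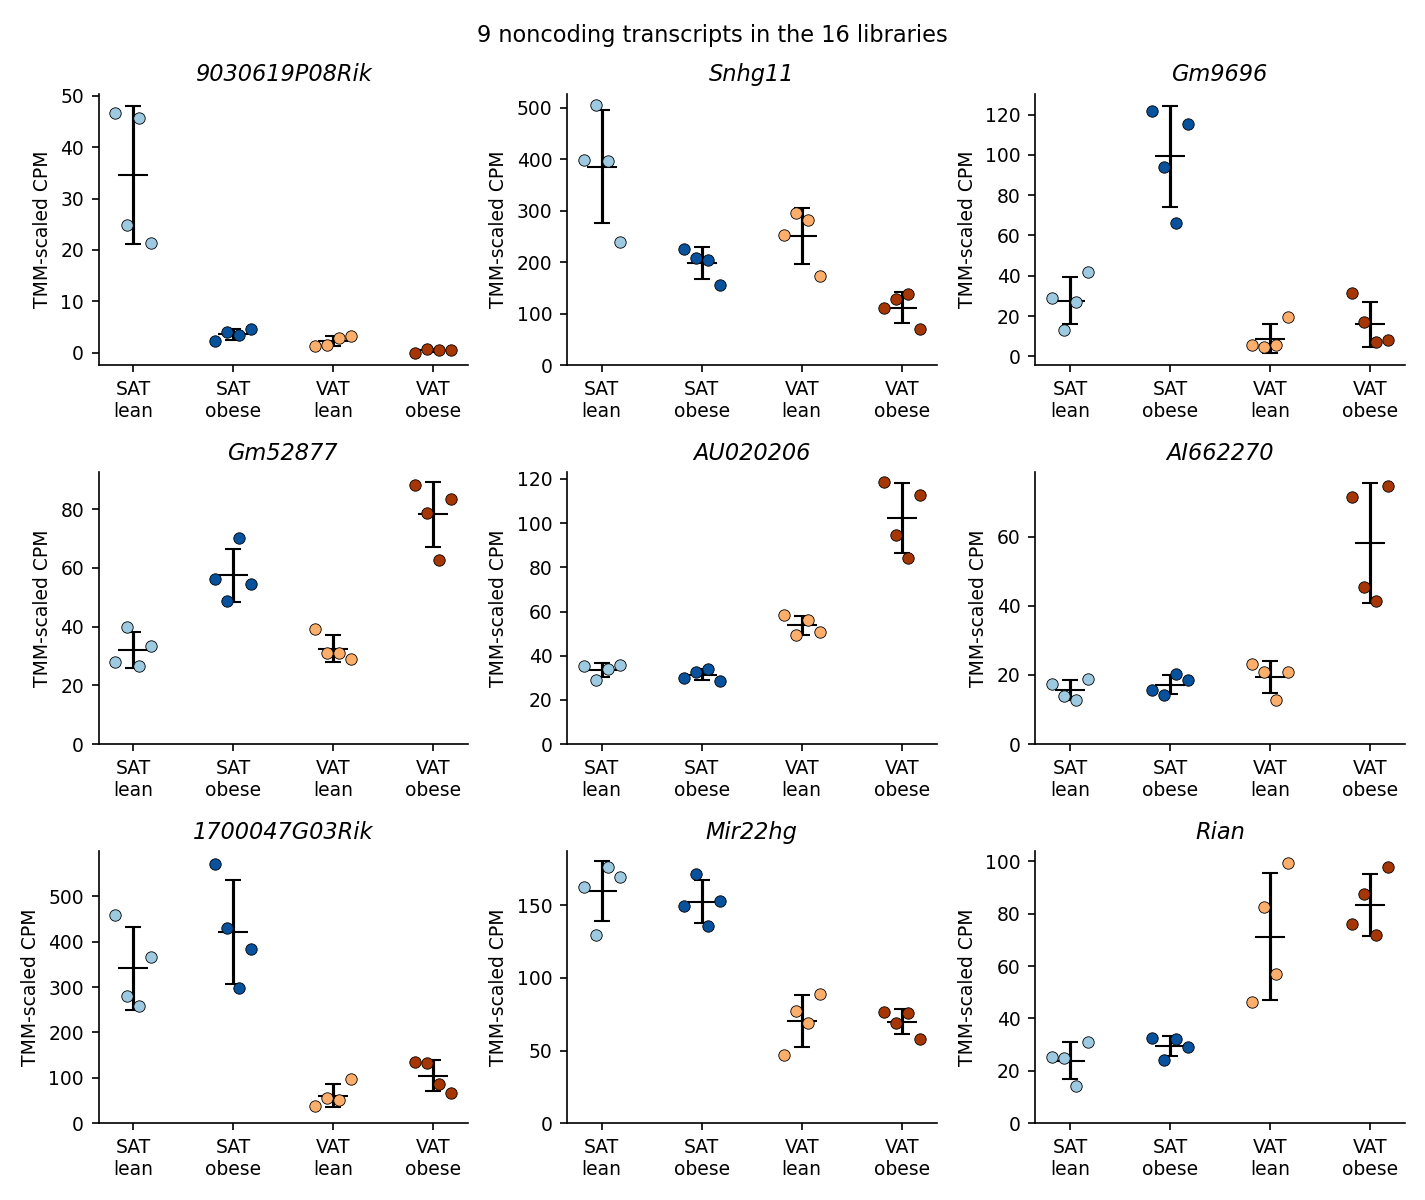
TMM-scaled CPM (y axes, linear and starting near 0) of 9 transcripts in the 4 libraries of each group (points), with the mean and SD (lines), by depot and diet (x axes). The lean SAT libraries of 9030619P08Rik and Snhg11 lie above the obese ones, the obese VAT libraries of AU020206 and AI662270 above all other groups, and the SAT libraries of 1700047G03Rik and Mir22hg above the VAT ones.

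The 3 imprinted transcripts on the list differed by depot. Between depots edgeR and DESeq2 called all 3 in lean mice and limma voom 2, where edgeR called 14.8% of all tested entries and 22.9% of those with a mean of at least 5 CPM. In obese mice edgeR and DESeq2 called 2 and limma voom 3, where edgeR called 29.4% and 41.9%. By diet edgeR called 0 in SAT and 0 in VAT, with 1 in each at an unadjusted p under 0.05, DESeq2 called 0 in both, and limma voom called 0 in SAT and 1 in VAT. Rian (chr12:109570242-109628150), from the Dlk1 to Dio3 region and a host of 11 snoRNA and 3 microRNA genes by position, held 25.4, 25.1, 14.2 and 30.8 in lean SAT and 46.1, 82.4, 56.8 and 99.5 in lean VAT. In obese mice it held 32.4, 24.3, 32.1 and 29.1 in SAT and 76.3, 87.4, 71.8 and 98.1 in VAT, so that every VAT library lay above every SAT library. The depots differed by 1.59 ± 0.17 (SE), adjusted p = 2.92e-07, in lean and by 1.5 ± 0.16, adjusted p = 2.19e-07 in obese mice, on the log2 scale. Kcnq1ot1, which silences neighbouring genes on the paternal chromosome, was higher in VAT of lean mice (0.42 ± 0.13, adjusted p = 0.0309), and Snhg14, the long host from the Prader-Willi region, was lower in VAT of lean (-0.65 ± 0.22, adjusted p = 0.0487) and obese mice (-0.79 ± 0.22, adjusted p = 0.00851). In lean mice the call for Kcnq1ot1 was kept in 13 of 18 alternatives and that for Snhg14 in 8, and each was lost with no filter, without lean replicate 1, 2 or 3 and without the mice of the shallowest VAT library of each diet. For Snhg14 it was also lost under limma voom, without the mouse block, and without lean replicate 4 or obese replicate 2 or 3, and in obese mice its call was lost without obese replicate 4. Rian kept its call in all 18 in both diets.

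MicroRNA hosts fell on both sides of the depot difference. By position 12 transcripts host microRNA genes. In lean mice 2 were higher and 2 lower in VAT (33.3%, against 14.8% of all tested entries and 22.9% of those with a mean of at least 5 CPM), and in obese mice 6 were higher and 2 lower (66.7%, against 29.4% and 41.9%). Of the 9 hosts listed by name, 1 was lower in VAT of lean mice (11.1%). In obese mice 3 of these 9 were higher and 1 lower (44.4%), close to the 41.9%. Mir22hg (chr11:75352365-75357502), the host of miR-22, held 163, 129.9, 177 and 169.7 in lean SAT and 149.7, 171, 136 and 153 in obese SAT, against 46.8, 76.9, 68.7 and 89 and 76.7, 69.2, 75.6 and 57.8 in VAT, with no overlap between depots (log2 difference -1.18 ± 0.14 (SE), adjusted p = 2.79e-06 in lean and -1.14 ± 0.14, adjusted p = 2.05e-06 in obese mice). The overlapping gene on its strand, Tlcd2, went the other way in lean mice (0.99, adjusted p = 0.00349). Lncppara, the host of let-7c-2 and let-7b, held 12.7, 10.6, 7.62 and 6.38 in lean SAT and 0.640, 1.55, 1.5 and 1.77 in lean VAT (-2.51 ± 0.34, adjusted p = 1.08e-05), and in the shallowest of these VAT libraries its level stands for 1 count. In obese mice the difference was -2.01 ± 0.31, adjusted p = 3.05e-05. Lncppara would have fallen under 5 CPM without 1 of the 4 groups, so the rule favoured a difference for it.

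Ftx, a transcript of the X inactivation centre that hosts miR-421 and miR-374b, was higher in VAT, with 5.70, 8.02, 6.77 and 5.32 in lean SAT and 11.5, 13.1, 10.7 and 10.8 in lean VAT (0.83 ± 0.19, adjusted p = 0.00426). Mir17hg, the host of the miR-17 to miR-92a cluster, differed between depots in obese mice (1.44 ± 0.22, adjusted p = 2.76e-05), and the lean value was 0.35 ± 0.23, adjusted p = 0.361. By diet, 3 of the 12 hosts by position fell in SAT (25%, against 4.85% of all tested entries and 6.75% of those with a mean of at least 5 CPM), and 1, F630028O10Rik, rose in VAT (8.3%, against 6.82% and 10.6%). The SAT share was close to that of all 274 transcripts, of which 24.5% were called there, 60 lower and 7 higher. The 3 hosts that fell were Dleu2, E130102H24Rik and Snhg20, which is also on the list of snoRNA hosts by name. E130102H24Rik (-0.58 ± 0.18, adjusted p = 0.0441), the host of miR-101a, had its call kept in 8 of 18 alternatives and lost without lean replicate 2 or 4 or any 1 obese mouse. Of the 9 hosts listed by name, 3 fell in SAT by edgeR and 4 by DESeq2 and limma voom, and in VAT all 3 tools called 0, each with 3 at an unadjusted p under 0.05. Besides Dleu2, Carmn, which is known from smooth muscle, fell in SAT (-0.93 ± 0.24, adjusted p = 0.0147, lost without lean replicate 3 or obese replicate 4), as did Mir3064 (-0.75 ± 0.20, adjusted p = 0.02), whose precursor lies within Ddx5 on the same strand and whose call was lost with the replicate block and without lean replicate 2 or 4 or obese replicate 1, 2 or 4. Dnm3os, the host of miR-199a and miR-214, and A330023F24Rik, the host of miR-29b and miR-29c, passed no test (adjusted p of 0.342 or more and of 0.089 or more).

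Of the 6 nuclear-retained transcripts, Firre, an X-linked RNA that shapes nuclear chromatin, was called by diet by edgeR, and limma voom called another as well in VAT. By edgeR this is 16.7% in each depot, close to the share of all tested entries with a mean of at least 5 CPM (16.9% in SAT and 17.6% in VAT, and 11.0% and 10.9% of all tested entries). It averaged 207 ± 27.7 TMM-scaled CPM in lean and 155 ± 14.1 in obese SAT (-0.41 ± 0.13, adjusted p = 0.0387), and 170.0 ± 21 and 129.5 ± 17.5 in VAT (-0.39 ± 0.13, adjusted p = 0.0498). The call was kept in 11 of 18 alternatives in each depot. In both it was lost with no filter, without the mice of the shallowest VAT library of each diet, and without lean replicate 2 or 3 or obese replicate 3 or 4, in SAT also without obese replicate 2, and in VAT also without obese replicate 1. Neat1, the scaffold of paraspeckles, was lower in VAT of lean (-0.83 ± 0.19, adjusted p = 0.00357) and obese mice (-0.58 ± 0.19, adjusted p = 0.022), where its call was lost without the mouse block and without obese replicate 1, 2 or 4. Of the 6 cytoplasmic or growth-linked transcripts, Dleu2 was called by diet in SAT (16.7%, again close to 16.9%). Between depots 2 were called in obese mice (33.3%, against 29.4% of all tested entries and 41.9% of those at 5 CPM or more), Dleu2 higher in VAT (1.57 ± 0.20, adjusted p = 3.91e-06) and Trp53cor1, a p53-induced RNA, lower (-1.29 ± 0.26, adjusted p = 0.000588). Trp53cor1 would have fallen under 5 CPM without 1 of the 4 groups, so the rule favoured a difference for it.

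The diet response differed between VAT and SAT for 7 of the 274 (2.6%), tested with the mouse as a block, against 2.17% of all entries and 4.57% of entries with a mean of at least 5 CPM. All 7 were higher in VAT relative to SAT, for which the shares were 0.880% and 1.84%. A difference beyond 1.5 was found for 1, against 0.632% and 0.884%. The median difference of the 274 was 0.18 on the log2 scale, against 0.03 for all entries. AI662270 held 17.4, 13.8, 12.9 and 18.7 in lean SAT, 15.8, 14.1, 20.2 and 18.4 in obese SAT, 23.1, 20.9, 12.7 and 20.9 in lean VAT and 71.3, 45.4, 41.3 and 74.6 in obese VAT. All 4 obese VAT libraries lay above the other 12, and its responses of 0.14 and 1.60 differed by 1.44 ± 0.25 (SE), adjusted p = 0.00246. AU020206 (chr7:75398815-75440938), which lies across Akap13 on the other strand, held 35.2, 28.9, 34 and 35.7 in lean SAT, 30.1, 32.8, 34.2 and 28.6 in obese SAT, 58.3, 49.5, 56.2 and 50.8 in lean VAT and 118, 94.5, 84 and 112 in obese VAT. Its obese VAT libraries again lay above the rest, and its responses differed by 1.01 ± 0.19, adjusted p = 0.0044. Both differences kept their call in all 17 alternatives.

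The other 5 rested more on the libraries used. Prdm16os, named for its place beside the brown fat regulator Prdm16, varied widely in lean SAT, with 6.20, 12.5, 39.5 and 18.1, and held 17.5, 17.3, 16.5 and 14.4 in obese SAT (-0.22 ± 0.37, adjusted p = 0.771). In VAT it held 0.640, 1.08, 4.29 and 3.87 in lean and 6.13, 7.10, 6.04 and 5.40 in obese mice, without overlap (1.18 ± 0.47, adjusted p = 0.121). Its responses differed by 1.57 ± 0.31, adjusted p = 0.0067, a call that was lost without lean replicate 3, without the mouse block and under limma voom. AW112010, known to be induced in stimulated macrophages, rose in VAT (0.82 ± 0.16, adjusted p = 0.00136) and not detectably in SAT (0.08 ± 0.15, adjusted p = 0.82), with a difference of 0.78 ± 0.19, adjusted p = 0.0332. Dleu2 (chr14:61805667-61921335), the host of miR-16-1, held 7.02, 12.4, 10.5 and 6.59 in lean and 5.92, 3.71, 5.59 and 5.25 in obese SAT, without overlap (-0.83 ± 0.21, adjusted p = 0.0136, lost with the replicate block and without lean replicate 2 or 3 or obese replicate 2), and 14.7, 12.8, 12.8 and 10.3 and 12.7, 14.1, 16.5 and 16.6 in VAT (0.29 ± 0.21, adjusted p = 0.444), and its responses differed by 1.12 ± 0.29, adjusted p = 0.0425. 2010016I18Rik fell in SAT (-2.52 ± 0.36, adjusted p = 7.39e-05) and in VAT (-1.11 ± 0.33, adjusted p = 0.0326), where the call was lost without lean replicate 1 or 3, obese replicate 2, 3 or 4 or the mice of the shallowest VAT library of each diet, and the fall was deeper in SAT (difference 1.40 ± 0.36, adjusted p = 0.0382). 2410006H16Rik, a snoRNA host, had responses of -0.24 in SAT and 0.92 in VAT (difference 1.20 ± 0.31, adjusted p = 0.0415). The calls for AW112010, Dleu2, 2010016I18Rik and 2410006H16Rik held in 9 of 17 alternatives, and each was lost without the mouse block and without lean replicate 3 or 4 or obese replicate 4, among other settings. In VAT the 7 tested macrophage marker entries had a median log2 fold change of 1.21, against 0.64 in SAT, and their part in these differences was not tested.

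**Figure D4:**
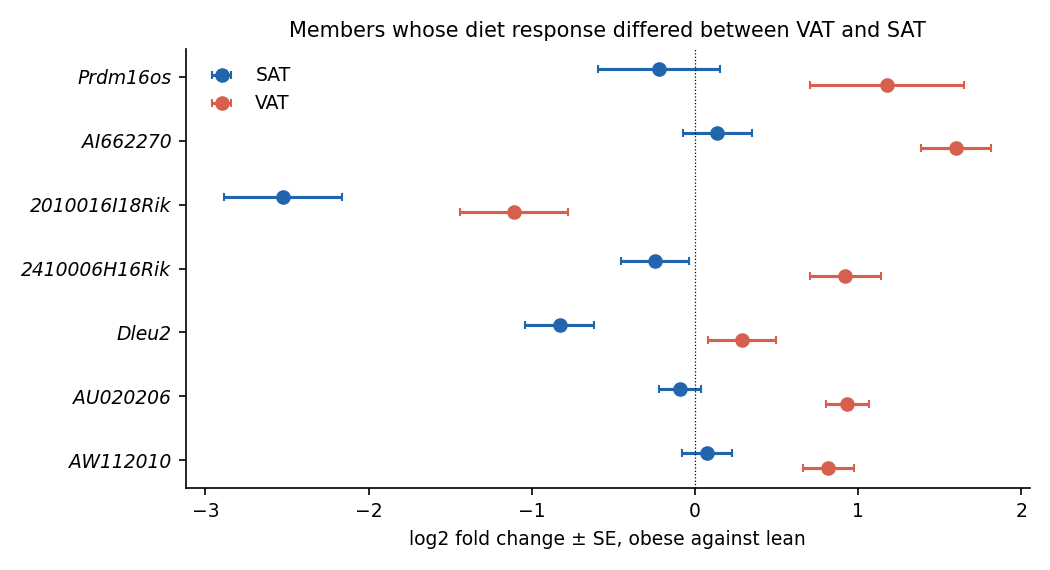
Log2 fold change of obese against lean mice with its standard error (x axis) in SAT (blue) and VAT (red) for the 7 transcripts (y axis) whose diet response differed between depots at an adjusted p below 0.05. In each of the 7 the VAT point lies to the right of the SAT point.

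Many of these transcripts share their place with other genes. GENCODE places 244 of the 274, and exons of 108 overlap a protein-coding gene on the opposite strand and of 14 on the same strand, 121 in all. How the counting treated strand and reads that fit several features is not stated, so that reads of such pairs may not have been separated. The share called was alike in SAT for transcripts with such an overlap and for the 123 placed without (24.8% and 25.2%), and lower with an overlap in VAT (10.7% and 22.8%), differences that were not tested. Some pairs moved together and others apart. Dleu2 and the most abundant tested transcript of Trim13, opposite to it, both fell in SAT (Trim13 log2 fold change -1.02, adjusted p = 0.0301). 4732471J01Rik fell in VAT (-0.98 ± 0.22, adjusted p = 0.0045) as did the transcript of Lipe, the hormone-sensitive lipase, opposite to it (-0.67, adjusted p = 0.0123), and in SAT only 4732471J01Rik passed the test (-0.68 ± 0.21, adjusted p = 0.0341, lost without lean replicate 1, 2 or 3, obese replicate 3 or 4 or the mice of the shallowest VAT library of each diet, against -0.07 and adjusted p = 0.852 for Lipe). AU020206 rose in VAT by 0.93 while the transcript of Akap13 changed by 0.28 (adjusted p = 0.611). Cidea, a lipid droplet protein, fell in SAT by 1.58 (adjusted p = 0.0012) while B430212C06Rik opposite to it changed by 0.03 ± 0.19, adjusted p = 0.944.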

How the data were processed

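Poly-A selected RNA of SAT and VAT from 4 lean and 4 obese mice was sequenced, and the authors deposited 1 table with a count column and a CPM column for each of the 16 libraries. Per the labels and the study's methods, the reads were checked with FastQC (0.11.9), trimmed with Trim Galore (0.6.6 in the submitters' processing notes), aligned to GRCm39 with HISAT2 (2.2.0) and counted per RefSeq transcript with HTSeq (0.13.5). The notes also name SAMtools (1.11), bedtools (2.29.2) and edgeR (3.34.0). The deposited counts are whole reads without normalization, and the deposited CPM values are those counts scaled to a library's total, which recomputing them matched within 4.9e-10. How strand and reads fitting several transcripts were handled is not given in the sources used here. Of 7894 NR_ entries with a symbol, 58.3% were the only entry of that symbol, and of the 273 listed transcripts with a symbol 89.7% were.

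From the counts, transcripts were kept where 3 or more libraries had a CPM above 1, TMM factors were computed, and the edgeR quasi-likelihood test (edgeR 4.0.16, limma 3.58.1, R 4.3.3) was fitted to all 16 libraries. Diet was tested between mice, depot and depot-by-diet with the mouse as a block, since each mouse gave both libraries. P-values were adjusted over all 13288 tested entries by the Benjamini-Hochberg method. Deviations from the group means correlated at r = -0.00901 to 0.173 (median 0.0759) in 8 same-mouse pairs and at -0.154 to 0.121 (median -0.0391) in 24 pairs from other mice. The biological coefficient of variation was 0.211 without and 0.178 with the mouse block. All 24 pairs of libraries within a group differed by more than counting noise (chi-square per degree of freedom of 7.98 or more). The test was tried on simulated counts, where 200 genes changed by 2 on the log2 scale were recovered at 80.5%, 78.5%, 71.5%, 78.5% and 61.5% for diet in SAT, diet in VAT, depot in lean mice, depot in obese mice and depot by diet. False calls made up 5.29%, 4.85%, 1.38%, 6.55% and 6.82% of the calls in the same order. The counts were drawn without a mouse effect, so the simulation cannot show how the mouse block treats paired libraries.

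The alternatives were RLE factors, no filter, filterByExpr, DESeq2 (1.42.0), limma voom, edgeR with legacy set to FALSE, counts summed per symbol, fits within a depot or diet, other mouse or replicate blocks, and each mouse left out. Leaving out the mice of the shallowest VAT library of each diet was added after seeing the data. Shares were tested by exact permutation in Python 3.11.15 with scipy 1.17.1. The transcripts, gene lists and tests were chosen with earlier results of these data known. Named transcripts are those in a role list, up to 10 called in each direction of a comparison by fold change, the 10 with the highest mean, those at the limit of 5 CPM and those whose call an alternative changed. H2-T10, H2-Q5, Mx1, F630028O10Rik, E130102H24Rik, A330023F24Rik, 9430037G07Rik, 1110038B12Rik, B430212C06Rik and the overlapping coding genes were chosen after their values were seen. Positions of transcripts come from GENCODE on GRCm39, and sequences from RefSeq on GRCm38.p6, which were not converted.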

Additional observations from a re-analysis of the deposited data

Results flagged for a closer look

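In 21 of 348 groups of 4 libraries (6.0%), 1 library of a named transcript stood apart from the other 3 by more than Dixon's 95% critical value for 4 samples, a limit that chance passes in about 1 in 20 groups. Values are TMM-scaled CPM, and 4 of the 21 fell on lean VAT replicate 1, the shallowest library. There Oip5os1 was at 6.41 (the other 3 at 16.9 to 18.3), 2900052L18Rik at 18.6 (22.6 to 23.4), H2-K2 at 23.1 (9.27 to 10.1) and Rpl14-ps1, a pseudogene of a ribosomal protein gene, at 106 (160 to 171).

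Among snoRNA hosts, Snhg5 was low in obese VAT replicate 1, at 18 (28.5 to 28.7), Snhg1 was low in obese SAT replicate 3, at 17.2 (18.3 to 18.5), and 2410006H16Rik was high in lean SAT replicate 4, at 14.0 (9.01 to 9.71). Among microRNA hosts and precursors, Mir17hg was low in lean SAT replicate 3, at 5.05 (8.51 to 8.59). In obese SAT, Mir100hg was high in replicate 2, at 12.6 (9.59 to 10.1), 2610203C22Rik in replicate 4, at 8.41 (7.0 to 7.2), and the precursor Mir682 in replicate 2, at 37.7 (12.9 to 13.5). The same obese SAT replicate 2 was high for Pisd-ps3, at 836 (585 to 588), and NR_169793, at 249 (150 to 161), and low for 4831440E17Rik, at 10.3 (12.0 to 12.3).

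The other libraries apart were Gm9696 in lean VAT replicate 4, at 19.3 (4.55 to 5.76), Gm5424 in obese VAT replicate 1, at 10.3 (7.18 to 7.67), and Gm16016 in lean SAT replicate 3, at 7.53 (13.8 to 14.2). G530011O06Rik was low in lean SAT replicate 2, at 2.39 (4.19 to 4.47), and B930092H01Rik in obese VAT replicate 1, at 6.52 (7.18 to 7.28). Slc2a4rg-ps was low in obese SAT replicate 4, at 3.09 (7.15 to 7.45), and Rpl14-ps1 was high in lean SAT replicate 3, at 159 (150 to 151).

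The diet response of 7 transcripts differed between depots in the edgeR test of that difference with the mouse as a block. On the log2 scale the response in VAT exceeded that in SAT by 1.44 for AI662270, 1.01 for AU020206, 1.57 for Prdm16os, 0.78 for AW112010, 1.40 for 2010016I18Rik, 1.20 for 2410006H16Rik and 1.12 for Dleu2.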

How the results depend on the processing

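The 113 values of transcripts named by the rule gave 2027 values under alternatives, of which 1860 kept their direction and side of the threshold, 167 kept the direction and lost the call, and 0 reversed. Leaving out each mouse in turn gave 5 to 7 transcripts higher and 34 to 58 lower in obese SAT (4 to 8 beyond a log2 fold change of 1.5), and 13 to 18 higher and 14 to 39 lower in obese VAT (3 to 5 beyond). Between depots it gave 11 to 22 higher and 35 to 46 lower in VAT of lean mice (13 to 15 beyond), and 31 to 55 higher and 35 to 62 lower in obese mice (18 to 23 beyond). The depot difference of the diet response ranged from 3 to 10 higher and 0 to 2 lower (0 to 3 beyond). The log2 difference of the transcripts' share of counts lay between -0.372 and -0.275 in SAT and between -0.076 and 0.001 in VAT, the positive value without obese replicate 3 (exact permutation p = 1). With no filter, 14 were higher in VAT of lean and 31 in VAT of obese mice, and for the depot difference of the diet response 4 were higher, 2 lower and 0 beyond 1.5. Without the mice of the shallowest VAT libraries, 13 were higher in VAT of lean mice, and for the depot difference of the diet response 3 were lower and 3 beyond 1.5. That difference of responses had 1 lower by DESeq2, 1 lower and 0 beyond by limma voom, 11 higher with legacy set to FALSE and 1 lower with counts summed per symbol. Without the mouse block 2 were higher and 0 beyond, and 11 of the named calls made with the block lost significance. A limit of 10 CPM on the mean left 152 transcripts. Lean and obese replicate numbers are different mice, and their deviations correlated at r = -0.0942 to 0.0545 in SAT and 0.0814 to 0.173 in VAT. With that number as a replicate block, 8 rose and 49 fell in SAT (6 beyond) and 25 rose and 39 fell in VAT (5 beyond), and of the calls named by the rule Mir3064 (adjusted p = 0.0581), Dleu2 (0.0682) and Gm16907 (0.0519) were lost by edgeR, as were, of the other calls described, those for 9430037G07Rik and E130102H24Rik. The causes were not tested.

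In the shallowest library 1 count stands for 0.796 CPM, so single values near 1 CPM rest on 1 or a few counts. With 4 mice a group, the exact test cannot go below p = 0.0286 between diets or 0.12 between depots. Transcripts with several entries, near copies or a partner on the other strand were not separated here. Cell makeup was seen only through marker sums. Those of intestinal epithelium were 18.6, 63.5, 18.4 and 53.6 TMM-scaled CPM in lean VAT and 18.4 to 25.7 in obese VAT. Their part in the VAT comparisons was not tested.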

Other observations

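Several transcripts of the role lists did not pass the test in any of the 5 comparisons by edgeR. Among snoRNA hosts, Snhg18 averaged 46.5 ± 1.26, 37.8 ± 3.60, 43.5 ± 6.50 and 42.1 ± 10.1 TMM-scaled CPM (SD, n = 4) in lean SAT, obese SAT, lean VAT and obese VAT, and Snhg12 16.9 ± 4.03, 13.1 ± 1.69, 17.9 ± 4.30 and 16.7 ± 7.09. Among RNAs of growth control, Tug1 averaged 27.2 ± 2.73, 22.2 ± 1.18, 21.8 ± 2.23 and 21.8 ± 1.71, and Dubr 16.8 ± 2.36, 20.9 ± 3.62, 20.4 ± 2.05 and 24.6 ± 3.01. Mir99ahg, which hosts miR-99a, went from 14.3, 15.9, 16.4 and 13.4 in lean to 9.85, 8.26, 10.9 and 9.41 in obese SAT (-0.64 ± 0.23, adjusted p = 0.0721), and Mir100hg from 16, 11.7, 12.8 and 16.6 in lean to 9.58, 9.08, 11.2 and 8.31 in obese VAT (-0.56 ± 0.20, adjusted p = 0.0738).

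Zfas1, another snoRNA host, held 13.1, 12.6, 13.8 and 15.3 in SAT and 14.6, 21.5, 21.2 and 28.6 in VAT of obese mice (log2 difference 0.64 ± 0.17 (SE), adjusted p = 0.0059, a call lost with no filter and without obese replicate 4), and 16.6, 17, 11.7 and 14.2 in SAT and 12.8, 19.5, 14.8 and 14.5 in VAT of lean mice (0.09 ± 0.18, adjusted p = 0.81). The depot difference of its diet response was 0.55 ± 0.24, adjusted p = 0.281.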
